A study of Mus musculus with 18 samples.

Results

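The 9 eyes of *rd1* mice that had received Best1-Nrf2 were examined on their own, as a set of different levels of Nrf2 mRNA. They are 9 of the 18 RPE libraries of the series, chosen by the treatment label NRF2, and no control eye enters any value below. The question was which genes go with the level of *Nfe2l2*, the gene that encodes Nrf2, from eye to eye. For each well-counted gene, the normalised read count was related to that of *Nfe2l2* over the 9 eyes. The result is a slope, the log2 change of the gene for each doubling of *Nfe2l2*, so that a slope of 1 means that the gene doubled with it.

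The mice were of the *rd1* strain (FVB/N), which lacks functional *Pde6b* and loses its rods early, and the tissue was taken at P40. Each of the 9 eyes came from a different mouse and had been given 2 adeno-associated viruses together, 1 with the human Nrf2 cDNA and 1 with GFP, both driven by the Best1 promoter, which is active in the RPE. The labels give no dose for a single eye, so the level of *Nfe2l2* is a measured quantity here and not an assigned one. The counts are per mouse gene, so reads of the human cDNA that were assigned to mouse *Nfe2l2* and those of the mouse transcript cannot be told apart. Reads of the human cDNA that were not assigned are missing from these values, and the libraries hold no measure of Nrf2 protein. RNA was released from the cleaned eyecup after the retina had been taken off, and was amplified before sequencing. In such bulk RNA, fewer cells of a type and less RNA per cell cannot be told apart.

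Nrf2 is a transcription factor that is held at a low level in unstressed cells by Keap1, which directs it to degradation. When oxidants or electrophiles modify Keap1, Nrf2 accumulates, enters the nucleus, pairs with a small Maf protein and binds antioxidant response elements in the promoters of its target genes. These targets supply glutathione and NADPH, reduce thioredoxin and peroxiredoxins, and inactivate quinones and other electrophiles. The RPE is a tissue of high oxidative load, as it takes up the tips of photoreceptor outer segments each day and lies next to a rich blood supply.

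The promoter stretches of 4 of the genes described below are shown because each holds the core of an antioxidant response element, TGACNNNGC, on one strand or the other, before an annotated start. *Gclm* and *Txnrd1* are long-known Nrf2 targets, and *Lix1* and *Acox2* were among the 8 positive slopes with the smallest p. Sequences are from RefSeq on GRCm38.p6, in the direction of the gene, with the 9 bases of the match in capitals.
Gclm, chr3:122245403-122245451, plus strand, match from 134 bases before the start: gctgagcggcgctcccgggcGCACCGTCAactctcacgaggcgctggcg
Txnrd1, chr10:82859094-82859142, plus strand, match from 92 bases before one of its starts: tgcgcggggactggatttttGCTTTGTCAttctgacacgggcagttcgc
Lix1, chr17:17402632-17402680, plus strand, match from 34 bases before the start: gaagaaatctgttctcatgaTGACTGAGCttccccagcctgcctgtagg
Acox2, chr14:8259020-8259052, minus strand, match from 13 bases before one of its starts: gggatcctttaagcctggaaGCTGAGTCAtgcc
In *Gclm*, *Txnrd1* and *Acox2* the element lay on the opposite strand, and in *Lix1* on the strand of the gene. The match was a common one. Over all 32851 promoter windows of 300 bases, from 250 before to 50 after a start, 12.4% held it. Of the 14020 genes tested, 10484 had a window, and 16.9% of these held the match in at least 1 window. The share was 18.1% among genes with a positive slope at an unadjusted p under 0.05 and 15.3% among those with a negative one, and both lay near the share of all genes tested. Of the members with a window, 3 of 8 held it in glutathione supply and recycling, 3 of 12 in the thioredoxin system, 4 of 18 glutathione transferases, 3 of 10 genes of NADPH supply, 1 of 17 in quinone and carbonyl detoxification, 1 of 6 in haem and iron handling, 1 of 8 in superoxide and peroxide removal and 2 of 10 regulators. Among the genes chosen for naming, *Trpm1*, *Asns* and *Dusp1* also held it before a start and are not shown, with slopes of 1.02, -1.20 and -0.75. Without eye 6 the slope of *Asns* was -0.14. The slope of *Dusp1* was -1.47 to -0.28 when each eye was left out, and -2.16 without eyes 3, 6 and 8. *Gss*, *Slc7a11*, *Nqo1* and *Sqor* did not hold these letters in their windows.

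*Nfe2l2* (ENSMUSG00000015839) was counted deeply in every eye. Its level was 318.2 CPM in eye 1, 461.7 in eye 2, 394.9 in eye 3, 696.3 in eye 4, 536.7 in eye 5, 255.8 in eye 6, 593.6 in eye 7, 278.6 in eye 8 and 450.6 in eye 9, where CPM is the read count relative to the library total, scaled between libraries. The highest eye had 2.72 times the level of the lowest, and the raw counts behind these values were 9071 to 27325. Eyes 4, 7 and 5 were the highest and eyes 6 and 8 the lowest. Because the range was less than 2 doublings, a slope rests on a narrow span of *Nfe2l2* and on 9 eyes.

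Library totals were 32839893 to 49598700 counts and showed no relation to *Nfe2l2* past the threshold (Pearson r = -0.199, exact permutation p = 0.613; Spearman rho = -0.233, exact permutation p = 0.552; n = 9 eyes, 2-sided, adjusted p = 0.613 for both over 6 such tests). Without the 2 eyes farthest from the median *Nfe2l2*, eyes 6 and 8, r was -0.669. Markers of the RPE were found in every eye, with *Rpe65*, the isomerase of the visual cycle, at 169.0 to 662.6 CPM and *Rlbp1*, a retinaldehyde carrier, at 572.7 to 1259 CPM. Mouse *Best1* itself was counted at only 2.08 to 3.92 CPM.

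Eyes 3, 6 and 8 stood apart from the other 6 in ways that the labels do not explain, and this touches most results below. They had the highest shares of mitochondrially encoded mRNA (3.70%, 4.42% and 2.75% of counts, against 1.41% to 2.67%). In each library the trend of log2 CPM with transcript length was measured, as the difference from the mean of the 9 eyes per doubling of length. It was lowest in eyes 8 (-0.302), 3 (-0.144) and 6 (-0.109), against -0.0741 to 0.248 in the others, so these 3 libraries were the poorest in long transcripts. Eyes 6 and 8 also had the lowest *Nfe2l2*, and eye 3 was in the middle. Sequencing took 2 runs, and the run of each library is not given. Slopes are therefore given over all 9 eyes and again over the 6 eyes without 3, 6 and 8, and with the length trend as a covariate where that matters. Both were added, and the 6 eyes chosen, after the data had been seen.

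No gene passed the test. Of 14020 genes tested with the quasi-likelihood F test of edgeR, 0 (0%) had a slope that differed from 0 at a Benjamini-Hochberg adjusted p under 0.05, and the smallest adjusted p was 0.499. At an unadjusted p under 0.05 there were 754 positive slopes (5.38% of genes tested) and 575 negative ones (4.10%). The same count was 0 with limma-voom and limma-trend, whereas DESeq2 called 141 positive (1.01%) and 55 negative slopes (0.392%). The unadjusted counts moved with single eyes. Without eye 1 there were 1603 positive and 1116 negative slopes, without eye 4 there were 399 and 363, and without eye 7 there were 450 and 249. The positive slopes numbered 502 without eye 5 and 420 without eye 6, and the negative ones 1017 without eye 3. Over the 6 eyes without 3, 6 and 8, 1575 slopes were positive (11.4% of 13785 genes) and 2253 negative (16.3%) at an unadjusted p under 0.05, again with 0 after adjustment. What follows describes single genes and lists against this background, where ± is the SE of a slope over the 9 eyes. Counts at an unadjusted p under 0.05 are from edgeR. Those over the 9 eyes are to be read against 5.38% positive and 4.10% negative of all genes tested. Those over the 6 eyes are to be read against 11.4% and 16.3%.

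Of the marker genes, *Gclc* encodes the catalytic subunit of glutamate cysteine ligase, which makes the first and rate-limiting step of glutathione synthesis. It lies on chromosome 9 (77754535 to 77794485, plus strand, GRCm38). *Gclc* was at 1592 CPM in eye 1, 2971 in eye 2, 394.6 in eye 3, 3173 in eye 4, 2767 in eye 5, 410.4 in eye 6, 3113 in eye 7, 538.1 in eye 8 and 2554 in eye 9. It fell into a low set of eyes 3, 6 and 8 and a high set of the other 6, and these did not overlap. The highest eye had 8.04 times the level of the lowest. This split was not particular to *Gclc*. *Ezr* was at 411.2 to 503.0 CPM in eyes 3, 6 and 8 against 1071 CPM or more in the others. *Keap1* was at 41.54 to 46.30 CPM against 88.38 CPM or more. *Psma7* split the other way, at 335.1 CPM or more against 229.5 CPM or less. The share of all genes that split in this way was not counted. The slope of *Gclc* was 2.04 ± 0.58 (SE, n = 9 eyes; edgeR adjusted p = 0.505), and DESeq2 gave an adjusted p of 0.0072. Eye 3 had the fourth lowest *Nfe2l2* and the lowest *Gclc* of all. Over the 9 eyes *Gclc* had a Pearson r of 0.80 with *Nfe2l2* and a Spearman rho of 0.88, without a permutation test. Within the 6 eyes without 3, 6 and 8, r was 0.902 (exact permutation p = 0.0111) and rho 0.943 (exact permutation p = 0.0167). Each had an adjusted p of 0.05 over 6 tests. Without eyes 1 and 4, the farthest in *Nfe2l2*, r was 0.63 over 4 eyes. The 6 eyes were chosen after the data had been seen and are also those of high *Gclc*. These p values are therefore no test of a dose relation. The slope over the 6 eyes was 0.83.

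*Txnrd1*, which encodes the cytosolic thioredoxin reductase and lies on chromosome 10 (82833951 to 82897712, plus strand), was at 1282, 2115, 518.9, 1937, 1684, 403.1, 1809, 439.6 and 1819 CPM in eyes 1 to 9. Eyes 3, 6 and 8 were again the low set, with no overlap, and the range was 5.25-fold. Its slope was 1.56 ± 0.48 (SE, n = 9 eyes; edgeR adjusted p = 0.505), and DESeq2 gave an adjusted p of 0.0151. Over the 9 eyes r was 0.80 and rho 0.80, without a permutation test. Within the 6 eyes r was 0.683 (exact permutation p = 0.142, adjusted p = 0.283) and rho 0.371 (exact permutation p = 0.497, adjusted p = 0.613), and r turned to -0.52 without eyes 1 and 4. The slope over the 6 eyes was 0.41, so the 9-eye slope of *Txnrd1* rested largely on the gap between the 2 sets. With the length trend of the library as a covariate, the slopes were 1.82 for *Gclc* and 1.35 for *Txnrd1*, each with an edgeR adjusted p of 0.16. In the plot of 6 genes against *Nfe2l2*, the 2 sets are seen in *Gclc* and *Txnrd1* and not in *Sqor*.

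**Figure D1:**
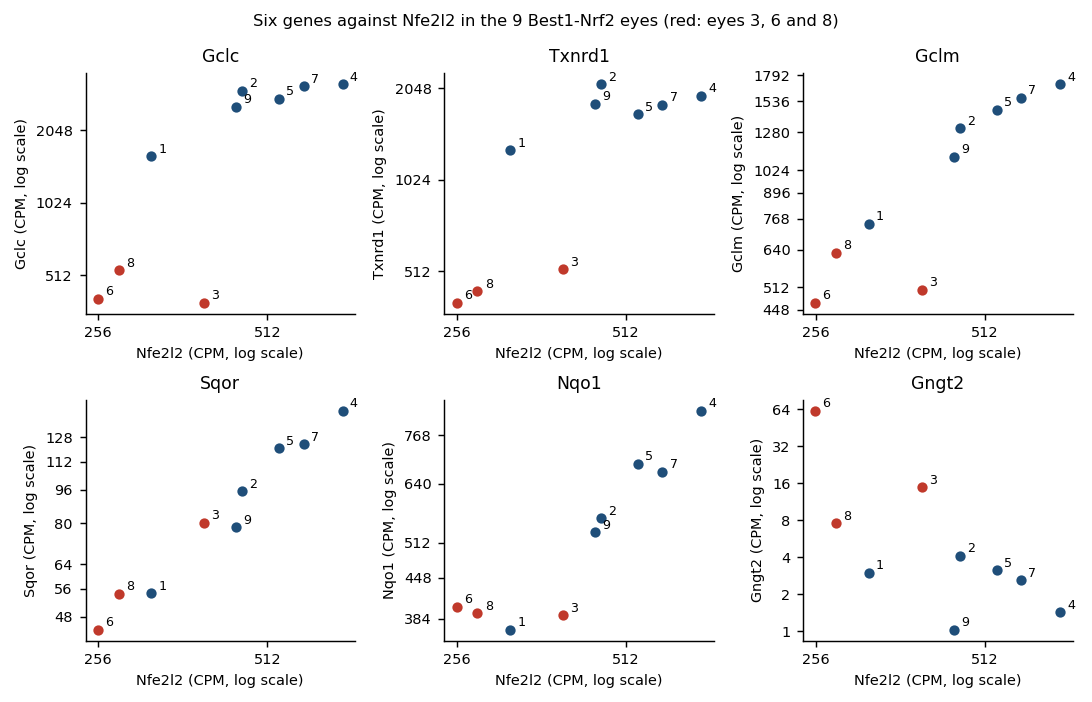
Level of 6 genes (CPM, vertical log axes) against Nfe2l2 (CPM, horizontal log axis) in the 9 Best1-Nrf2 eyes, 1 point per eye with its number, and eyes 3, 6 and 8 in red. Gclc and Txnrd1 form a low set of 3 eyes and a high set of 6, whereas Sqor goes up with Nfe2l2 across all 9 eyes from 44.8 to 147.6 CPM.

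The genes of glutathione supply and recycling had the highest median slope of the 26 gene lists examined over the 9 eyes. Of its 12 members, all tested, 9 had a positive slope at an unadjusted p under 0.05 and 0 a negative one, and 11 slopes were above 0. The median slope was 1.41, against -0.0113 over all genes tested. The median was 0.85 in the 6 eyes, where 8 of the 12 were positive at an unadjusted p under 0.05 and 4 lists had a higher median. These were the glutathione transferases (0.93), the mitochondrially encoded mRNAs (0.92), the red blood cell markers (0.89) and superoxide and peroxide removal (0.87). With the length covariate it was 1.28, with 10 of 12 positive at that level, against 9.52% of all genes tested. Without eye 6 it was 1.21, with 8 of 12 against 3.04%. In DESeq2, 6 of the 12 were called.

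Of its members, *Gclm* encodes the modifier subunit of glutamate cysteine ligase. It ranged from 467.7 CPM (eye 6) through a median of 1109 to 1701 CPM (eye 4), and eyes 3, 6 and 8 were the 3 lowest. Its slope was 1.31 ± 0.29 (SE), and 1.07 over the 6 eyes. *Gss*, glutathione synthetase, had a median of 218.1 CPM (66.09 to 459.2) and a slope of 1.79 ± 0.39 (SE), with 1.59 over the 6 eyes. *Slc7a11*, the cystine carrier that supplies the cysteine of glutathione, had a median of 201.4 CPM (64.15 to 375.6) and a slope of 1.79 ± 0.41 (SE), with 1.18 over the 6 eyes. Glutathione reductase, *Gsr*, had a slope of 1.50 ± 0.38, and *Slc3a2*, the partner of *Slc7a11*, 0.87 ± 0.23. The exceptions were *Glrx*, a glutaredoxin, at -0.28 ± 0.38, *Ggt7* at 0.04 ± 0.71 and the exporter *Abcc1* at 0.65 ± 0.41.

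The members of the thioredoxin system had slopes of both signs over the 9 eyes. Of 13, 4 had a positive slope at an unadjusted p under 0.05 and 0 a negative one, and the median slope was 0.07. The median was 0.32 without eye 8, with 10 slopes above 0, and 0.005 without eye 6. In the 6 eyes 7 of 13 were positive at that level and 11 slopes were above 0, with a median of 0.58. The 4 of the 9 eyes were *Srxn1*, *Prdx6*, *Txnrd1* and *Prdx1*. *Srxn1*, sulfiredoxin, which restores overoxidised peroxiredoxins, ranged from 398.8 CPM (eye 3) to 3020 CPM (eye 4) with a median of 2123. Its slope was 1.80 ± 0.48 (SE), and 0.97 over the 6 eyes. *Prdx6*, a peroxiredoxin that reduces phospholipid peroxides, ranged from 2201 CPM (eye 3) to 7844 CPM (eye 4) with a slope of 1.11 ± 0.31 (SE), and 1.42 over the 6 eyes. The substrate of the reductase, thioredoxin itself (*Txn1*), had a slope of -1.15 ± 0.54, and the mitochondrial *Txn2* and *Txnrd2* had slopes of 0.07 and -0.34. No slope of the list was below -0.66 without eye 8, or below -0.54 over the 6 eyes.

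Of the glutathione transferases, which join glutathione to electrophiles, 20 of 23 were tested, with 4 positive slopes and 1 negative one at an unadjusted p under 0.05 and a median of 0.25. All 4 positive ones, *Gstm4*, *Gstm1*, *Gstm2* and *Gstm7*, were of the mu class, whose other tested member, *Gstm5*, had a slope of -0.33 ± 0.39 (SE). The count of 4 was 2 without eye 4 and 6 without eye 8, with medians of 0.08 and 0.47. The count of negative ones was 0 to 2 when each eye was left out. *Gstm1* had a slope of 1.33 ± 0.36 (SE) and ranged from 2858 CPM in eye 1 to 12580 CPM in eye 4. The slope was 2.02 over the 6 eyes. The genes of this class are alike in sequence, so how reads were shared among them is uncertain. *Mgst3*, a microsomal transferase, had a slope of -1.62 ± 0.55 (SE), and -0.62 without eye 8. In eye 8 it was at 252.3 CPM against 25.33 to 75.05 CPM in the others. Its slope was -0.28 over the 6 eyes. Over those eyes the list as a whole differed from the 9-eye values, with 15 of 21 members positive at an unadjusted p under 0.05 and a median of 0.93.

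Among the 10 genes of NADPH supply, 3 had a positive slope and 1 a negative one at an unadjusted p under 0.05, and the median was 0.42. Without eye 6 only 1 was positive at that level, with a median of 0.28, and in the 6 eyes 2 were, with a median of 0.41. The positive ones over the 9 eyes were *Me1*, malic enzyme, with a slope of 1.19 ± 0.34 (SE), *Pgd* with 1.14 ± 0.38 (SE) and *G6pdx* with 1.11 ± 0.39, the last pair being the NADPH-forming enzymes of the pentose phosphate pathway. Over the 6 eyes the slopes of *Me1* and *Pgd* were 0.38 and 0.24. The negative one was *Rpia* with -1.50, at only 2.55 to 16.1 CPM and highest in eye 8.

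Quinone and carbonyl detoxification had 8 of 20 members with a positive slope at an unadjusted p under 0.05 and 0 with a negative one, and a median of 0.37. Without eye 6 it was 5 of 20, with a median of 0.52. Without eye 8 the median was 0.74, with 18 of 20 slopes above 0 against 13 over the 9 eyes. Over the 6 eyes 10 of 20 were positive at that level, with a median of 0.53. *Nqo1*, the quinone reductase often used as a readout of Nrf2, ranged from 368.5 CPM (eye 1) through a median of 532.5 to 841.9 CPM (eye 4). Its slope was 0.81 ± 0.21 (SE), and 1.03 over the 6 eyes. Unlike *Gclc*, *Nqo1* did not form 2 sets, as eye 1 lay below eyes 3, 6 and 8. *Ephx1*, an epoxide hydrolase, had a slope of 0.91 ± 0.22 (SE), with 0.83 over the 6 eyes. *Aldh7a1*, an aldehyde dehydrogenase, had 0.88 ± 0.19 (SE), with 0.77 over the 6 eyes.

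In haem and iron handling, all 10 slopes were above 0 over the 9 eyes and 3 had an unadjusted p under 0.05, with a median of 0.35. With the 6 eyes alone, 8 of 10 were above 0 and 5 were positive at that level, with a median of 0.59. *Hmox1*, haem oxygenase, ranged from 203.2 CPM (eye 3) to 1574 CPM (eye 4) and had a slope of 1.75 ± 0.44 (SE), with 1.54 over the 6 eyes. *Slc48a1*, a haem transporter, had 1.07 ± 0.33, and *Slc40a1*, ferroportin, the cellular iron exporter, 1.78 ± 0.73. The 2 transporters had slopes of 0.41 and 0.33 over the 6 eyes. The ferritin chains *Fth1* and *Ftl1* had slopes of 0.09 and 0.32.

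Of 9 enzymes that remove superoxide and peroxide, *Cat*, catalase, was the only one with an unadjusted p under 0.05 over the 9 eyes, where the median slope was 0.13. In the 6 eyes 7 of 9 were positive at that level, against 11.4% of all genes tested, with a median of 0.87. *Cat* ranged from 242.0 CPM (eye 6) through a median of 626.7 to 899.0 CPM (eye 4), and its slope was 1.32 ± 0.28 (SE), with 0.86 over the 6 eyes. *Gpx1* had a slope of -0.50 over 9 eyes and 0.87 over the 6 eyes. The slope was 0.02 without eye 8, where *Gpx1* was at 1436 CPM against 343.6 to 760.0 CPM elsewhere.

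Among regulators of Nrf2, 2 of 11 tested genes had a positive slope at an unadjusted p under 0.05 over the 9 eyes, with a median of 0.20. It was 1 without eye 5, 6 or 8. In the 6 eyes 1 was positive and 3 were negative at that level, against 11.4% and 16.3% of all genes tested. There 4 slopes were above 0 and the median was -0.13. *Sqstm1* (p62), the autophagy receptor that binds Keap1, had a slope of 0.94 ± 0.26 (SE), with 0.78 over the 6 eyes. *Keap1* had 0.87 ± 0.34 (SE), with 0.07 over the 6 eyes. None of the 31 proteasome subunits had an unadjusted p under 0.05 over the 9 eyes, with a median slope of -0.11. Without eye 1 there were 4 negative and 1 positive, beside 1116 negative and 1603 positive slopes over all genes. Without eye 8 the median was 0.08. Over the 6 eyes, 10 of the 31 were positive at that level and 30 slopes were above 0, with a median of 0.48. The plot of slopes by role shows the 9-eye intervals beside the 6-eye slopes.

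**Figure D2:**
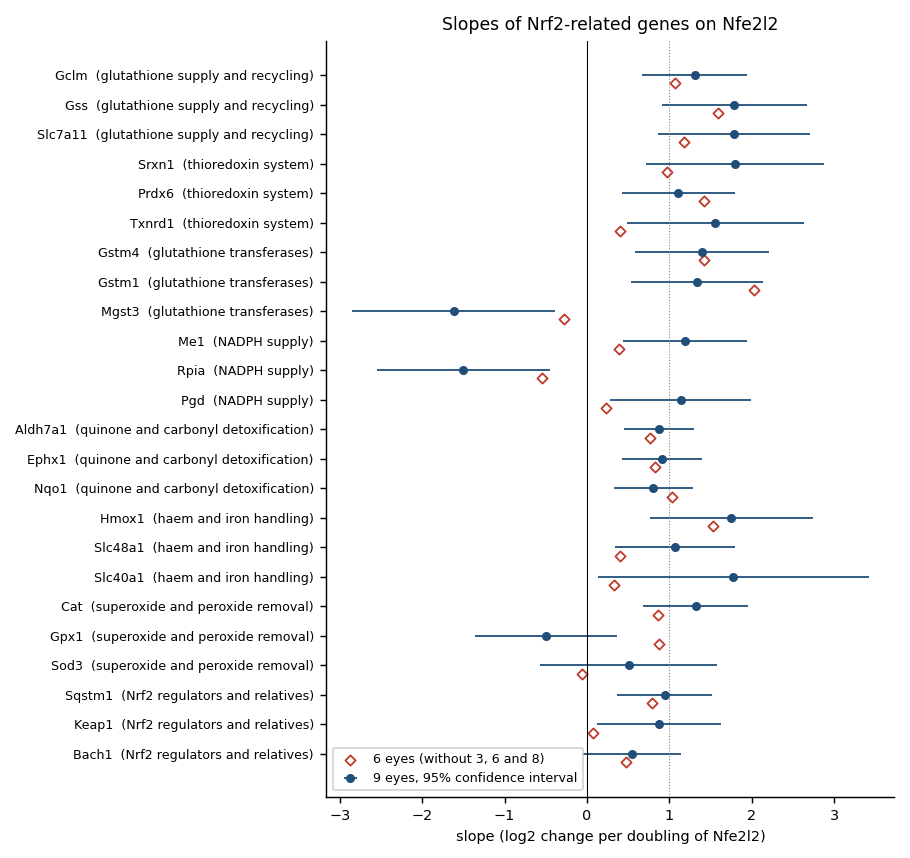
Slopes on Nfe2l2 (log2 change per doubling of Nfe2l2, horizontal axis) of the 3 genes with the smallest p in each of 8 lists of Nrf2-related genes, over 9 eyes with 95% confidence intervals (circles) and over 6 eyes without eyes 3, 6 and 8 (diamonds). Most circles lie between 0.81 and 1.80, while the diamonds of Txnrd1 (0.41), Pgd (0.24), Slc40a1 (0.33) and Keap1 (0.07) lie near 0.

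Among well-counted genes, the level of *Sqor* was the one most like that of *Nfe2l2*. The 5 genes of highest Pearson r over the 9 eyes, among those whose log2 CPM averaged 3 or more, were *Sqor* (0.985), *Fuca1* (0.981), *Aldh7a1* (0.97), *Car14* (0.968) and *Ctsa* (0.967), where r was used only to rank. *Sqor*, the mitochondrial sulfide quinone oxidoreductase, ranged from 44.80 CPM (eye 6) through a median of 80.28 CPM (eye 3) to 147.6 CPM (eye 4), without the 2 sets seen in *Gclc*. Its slope was 1.19 ± 0.19 (SE, n = 9 eyes), and it was 1.30 over the 6 eyes, so that *Sqor* went in near proportion to *Nfe2l2* in both. *Fuca1*, lysosomal fucosidase, and *Ctsa*, lysosomal cathepsin A, had shallow slopes of 0.49 and 0.55, with 0.50 and 0.46 over the 6 eyes. *Car14*, a membrane carbonic anhydrase of the RPE, had 0.72, with 0.70 over the 6 eyes.

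The 8 positive slopes of smallest p among genes of that level were those of *Sqor*, *Lix1*, *Acox2*, *Smarcd3*, *Maoa*, *Ccdc88a*, *Madcam1* and *Ttc39c*. They were 1.19 to 1.73, and over the 6 eyes they were 1.02 to 1.74, all above 0. *Acox2*, the peroxisomal oxidase of branched chains and bile acid precursors, ranged from 47.57 CPM (eye 6) to 237.8 CPM (eye 4) with a slope of 1.70 ± 0.30 (SE). *Lix1* ranged from 40.89 CPM (eye 6) to 181.0 CPM (eye 4) with a slope of 1.61 ± 0.27 (SE). *Maoa*, monoamine oxidase A, ranged from 84.34 CPM (eye 6) to 283.1 CPM (eye 4) with a slope of 1.21 ± 0.23 (SE). DESeq2 called all 8, with adjusted p values of at most 0.00303. The 8 genes had been chosen by their edgeR p in the same libraries. The DESeq2 calls and the signs over the 6 eyes are therefore not independent tests of them.

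Of the 8 negative slopes of smallest p, 7 are reported, those of *Stmn1*, *Ptpru*, *Ank3*, *Rsbn1*, *Gm47283*, *Smg1* and *Gngt2*. These were chosen among genes averaging 3 or more in log2 CPM over the 9 eyes, which *Gngt2* (3.47) and *Ptpru* (3.31) reached only with eye 6, their means without it being 2.21 and 3.00, the latter just under 3. Their negative slopes are thus in part set by that choice. The steepest of the other 5 was -2.74. *Stmn1*, a microtubule regulator of growing and neural cells, was at 562.0 CPM in eye 6 against 15.34 to 136.9 CPM in the others, and its slope of -2.74 was -1.60 without eye 6. *Gngt2*, a cone transducin subunit, was at 62.02 CPM in eye 6 against 1.04 to 14.93 CPM elsewhere. Over the 6 eyes the 7 slopes were -1.24 to -0.44, with -1.24 for *Smg1*, a kinase of nonsense-mediated decay, -1.23 for *Stmn1*, -0.65 for *Gngt2* and -0.44 for *Rsbn1*. These 6 eyes were among those by which the 7 genes were chosen. In the plot by eye, the positive genes climb with *Nfe2l2* and *Stmn1* and *Gngt2* are highest in eye 6.

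**Figure D3:**
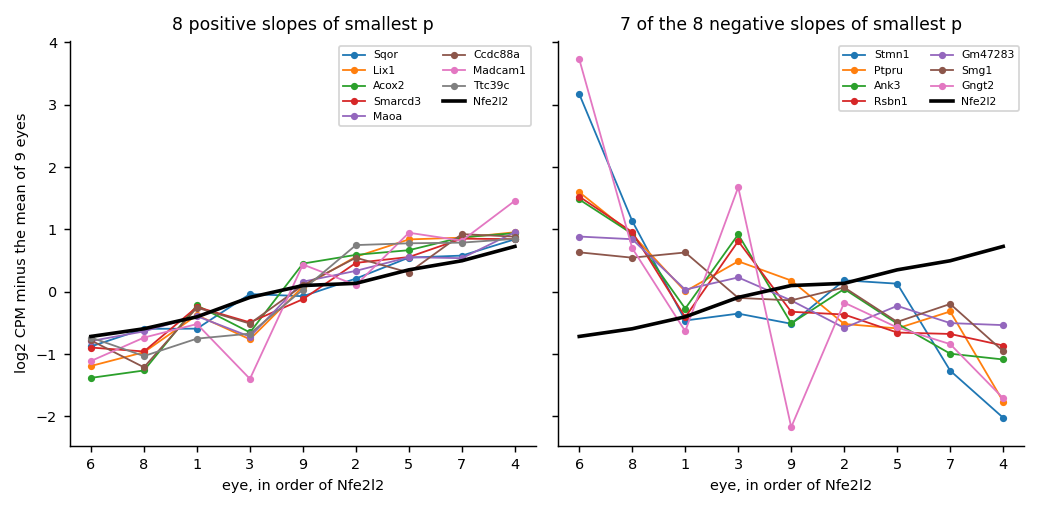
Level of each gene (log2 CPM minus the mean of the 9 eyes, vertical axis) by eye in order of Nfe2l2 (horizontal axis), for the 8 positive (left) and 7 of the 8 negative (right) slopes of smallest p, with Nfe2l2 as a thick black line. Eye 6, the lowest in Nfe2l2, carries the peaks of Stmn1 (562.0 CPM) and Gngt2 (62.02 CPM), and Gngt2 and Ptpru reached the level needed for naming only with that eye.

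The list of pigment genes was next to that of glutathione supply and recycling in median slope over the 9 eyes. Of 8 pigment genes, 5 had a positive slope at an unadjusted p under 0.05, and the median was 0.86. The count was 3 without eye 4, 6 or 7 and 2 over the 6 eyes, where the median was 0.63. *Tyrp1* and *Tyr*, enzymes of melanin synthesis, had slopes of 1.09 ± 0.31 (SE) and 1.06 ± 0.31 (SE), with 0.75 and 0.52 over the 6 eyes. *Pmel*, the fibril protein of melanosomes, had 1.34 ± 0.51, while *Dct* had 0.24 ± 0.95 and *Mlana* -0.48 ± 0.53. *Trpm1*, listed with the inner retina but also a gene of pigment cells, had 1.02 ± 0.39.

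The visual cycle genes of the RPE showed no slope at an unadjusted p under 0.05 in any of 11 members over the 9 eyes, with a median of -0.23, while 2 were positive and 2 negative without eye 1 and 2 negative without eye 3. *Ttr*, transthyretin, had a slope of -1.36 ± 0.70 and was at 50310 and 38150 CPM in eyes 3 and 6, against 6623 to 17470 CPM in the others. Its slope was 0.36 over the 6 eyes. Of 16 genes of RPE identity and transport, 1 had an unadjusted p under 0.05 over the 9 eyes, with a median of 0.45. Over the 6 eyes 3 were positive and 1 negative at that level, against 11.4% and 16.3% of all genes tested. The median there was -0.02. With the length covariate 5 were positive, against 9.52%. The positive count was 4 without eye 1, 3 without eye 3 and 0 without eye 8. The 1 over the 9 eyes was *Ezr*, ezrin of the apical microvilli, with 0.98 ± 0.38 and 0.10 over the 6 eyes.

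Markers of photoreceptors and inner retina, tissue that was removed before the RNA was taken, were highest in the eye with the lowest *Nfe2l2*. The summed level of the listed cone markers with any count was 53.9 to 496.9 CPM with a median of 60.16 CPM, and eye 6 was the highest. Of the 9 cone markers tested, 5 had a negative slope at an unadjusted p under 0.05 and the median slope was -1.67. Without eye 6 it was 0 of 9, against 4.11% of all genes tested, with a median of -0.81. With the length covariate it was 5 of 9, against 4.54%, with a median of -1.78. *Pde6h*, a cone phosphodiesterase subunit, was at 83.69 CPM in eye 6 against 0.50 to 10.15 CPM elsewhere. Of the 11 rod markers only 4 passed the filter, and rhodopsin did not. *Sag*, rod arrestin, was at 26.06 CPM in eye 6 against 1.56 to 8.88 CPM in the others. Of 17 inner retina markers, 15 passed the filter on mean level over the 9 eyes and 7 did without eyes 2 and 6. The filter thus let some in through the eyes where they were high, and no count or median of their slopes is read here. *Pcp2*, a marker of bipolar cells, was at 565.1 CPM in eye 6 and 32.10 CPM in eye 2, against 0.97 to 15.25 CPM in the other 7. Of the 8 Muller glia markers, 8 passed over the 9 eyes and 7 without eye 6, and their slopes are not read for the same reason.

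With the mean of the cone, rod and inner retina markers as a covariate, the slope of *Gclc* was 1.96, that of *Txnrd1* 1.51, that of *Gclm* 1.33 and that of *Sqor* 1.22. The median of NADPH supply went from 0.42 to 0.23, and the slope of *Mgst3* from -1.62 to -2.16. Without eye 6 the slopes of *Gclc*, *Txnrd1*, *Gclm* and *Sqor* were 1.76, 1.31, 1.25 and 1.17. The covariate was fitted for every gene, and some slopes moved far with it. That of *Stmn1* went from -2.74 to -1.53, that of *Ddit3* from -1.13 to -0.26 and that of *Asns* from -1.20 to 0.05. Whether retinal RNA was the cause of any slope was not tested. In the map of gene lists by eye, eye 6 stands out for retinal markers, eye 2 for inner retina and eye 3 for skeletal muscle.

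**Figure D4:**
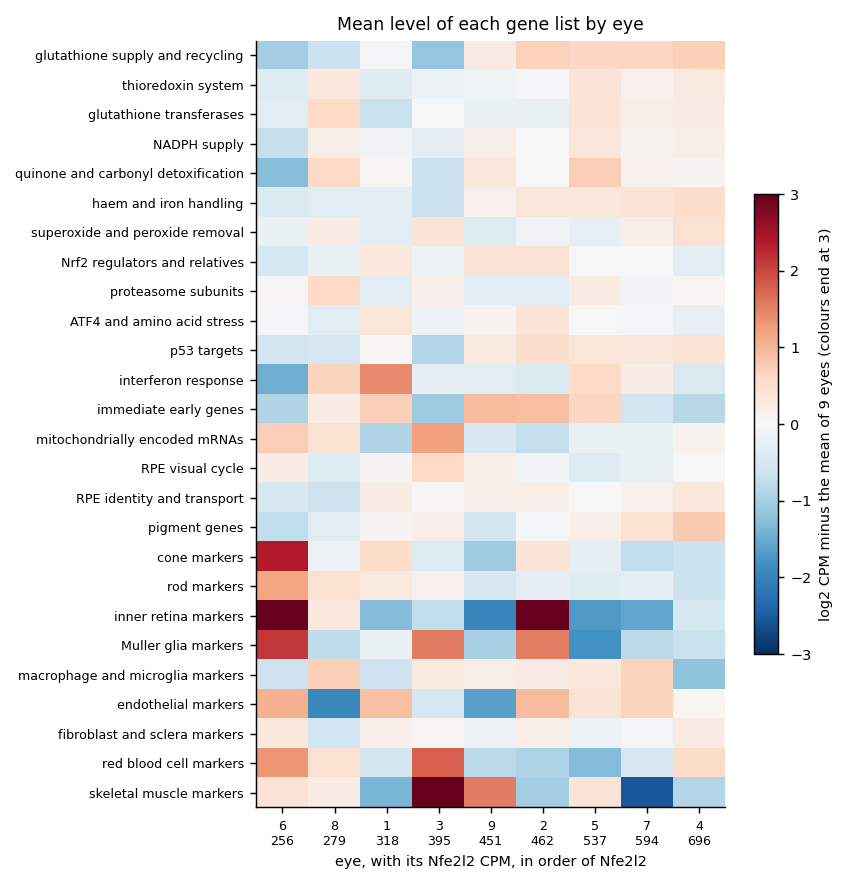
Mean log2 CPM of the members of each of 26 gene lists in each eye, minus the mean of the 9 eyes (colour, red above and blue below the mean), with eyes in order of their Nfe2l2 level (CPM under each eye number). The top row, glutathione supply and recycling, goes from blue to red with Nfe2l2 except in eye 3, and the retinal lists are red in eye 6.

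The mitochondrially encoded mRNAs had opposite signs in the 2 analyses. Over the 9 eyes, 1 of 13 slopes was above 0, none had an unadjusted p under 0.05 and the median was -0.48. Over the 6 eyes all 13 were above 0, all 13 with an unadjusted p under 0.05, and the median was 0.92. *mt-Co3*, a subunit of cytochrome oxidase, was at 13530, 12180 and 10070 CPM in eyes 3, 6 and 8, against 2740 to 6053 CPM in the others. Its slope was -0.78 over 9 eyes and 1.07 over 6. With the length trend as a covariate the median of the 13 was -0.12. Upper-quartile scaling also turned the 9-eye median, to 0.04, so no direction is given for these genes.

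Among other groups, 2 of 15 interferon response genes had a negative slope at an unadjusted p under 0.05, with a median of -0.52. The count was 0 without eye 4 or 8, 1 without eye 1 or 7 and 4 without eye 6. Without eye 1, 3 were positive at that level and the median was -0.11. Over the 6 eyes 6 of 15 were negative at that level, against 16.3% of all genes tested, with a median of -1.38. *Isg15*, a ubiquitin-like protein induced by interferon, was at 46.61 CPM in eye 8 against 5.21 to 35.7 CPM elsewhere and had a slope of -1.79 ± 0.67. Of 10 p53 targets, *Ccng1*, cyclin G1, had a slope of 1.47 ± 0.49, with 0.42 over the 6 eyes. Of 9 immediate early genes, *Atf3* had 1.03 ± 0.35, with 0.34 over the 6 eyes, and the list's median was -0.998 without eye 6 and 0.35 without eye 4. Over the 6 eyes 3 of the 9 were negative at an unadjusted p under 0.05, against 16.3% of all genes tested. The median there was -1.51, against -0.24 over the 9 eyes. Of 12 genes of the ATF4 response *Ddit3* had -1.13 ± 0.45 over 9 eyes, -0.33 without eye 6 and 0.83 over the 6 eyes, so no direction is given for it. None of the 19 macrophage and microglia, 12 endothelial, 9 fibroblast, 5 red blood cell or 8 skeletal muscle markers tested had an unadjusted p under 0.05 over the 9 eyes. With single eyes left out, up to 2 macrophage, 2 fibroblast, 1 endothelial and 1 red blood cell markers did in 1 direction. In the 6 eyes 2 macrophage markers were negative at that level, as were 2 fibroblast markers, and 2 fibroblast markers were positive. Of all genes tested over these 6 eyes, 16.3% were negative and 11.4% positive, so these counts are not read. The median of the red blood cell markers turned from -1.13 to 0.89. The plot of list members shows these medians beside the spread of all genes tested.

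**Figure D5:**
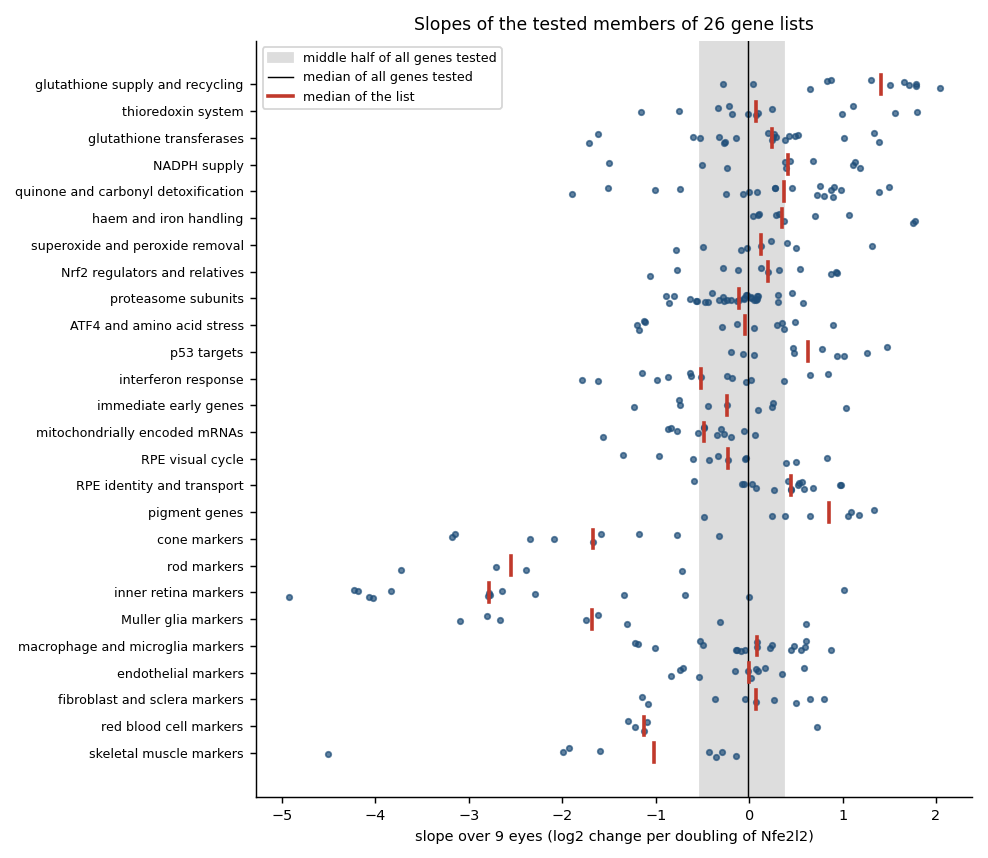
Slopes on Nfe2l2 over 9 eyes (log2 change per doubling of Nfe2l2, horizontal axis) of every tested member of 26 gene lists (points), with the median of each list (red bar), the median of all 14020 genes tested (black line) and the range that holds the middle 50% of all genes tested (grey). The medians of glutathione supply and recycling (1.41) and pigment genes (0.86) lie to the right of the grey range, and that of the cone markers (-1.67) to the left. Some rod and inner retina markers passed the filter through the eyes where they were high, so their medians are not read.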

How the data were processed

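RNA of the RPE of 9 Best1-Nrf2 eyes was profiled by sequencing after amplification with a low-input kit, without molecular identifiers. The deposited table of the authors holds estimated counts for each Ensembl gene as whole numbers, with no scaling between libraries. The unit was inferred from the values. The submitters' processing notes name FastQC and Salmon 0.8.1, the study's methods also a genome aligner and counter, and the table does not say which made it. The study's methods describe fewer replicates than the 9 that the labels give.

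Genes were tested where log2 CPM averaged 1 or more over the 9 libraries (14020 of 47729), *Nfe2l2* itself being the predictor. Libraries were scaled by TMM over the 9 alone. Slopes on the centred log2 CPM (prior count 2) of *Nfe2l2* were tested by quasi-likelihood F test (edgeR 4.0.16, R 4.3.3), 2-sided, adjusted by Benjamini-Hochberg over all genes tested, with a threshold of 0.05. Correlations used exact permutation over pairings. Alternatives were RLE, upper-quartile and no scaling, other filters, DESeq2 1.42.0, limma 3.58.1 (voom and trend), a rank predictor, covariates for retinal and RPE markers, library total and length trend, a threshold of 0.1, a prior count of 0.5 for the correlations, and leaving out eyes. Transcript length was the median over a gene's coding transcripts in GENCODE M21, found for 92.6% of genes tested. Coordinates are from that annotation on GRCm38, which may differ from the authors' release. Methods were tested on simulated data.

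Named are *Nfe2l2*, *Gclc* and *Txnrd1*, the 3 members of smallest p in each of 26 lists, and, among genes averaging 3 or more in log2 CPM, the 8 positive and 8 negative slopes of smallest p and the 5 highest Pearson r. Some items that the rule selects are not reported here. Other members are named to account for a list and were chosen after their values were seen. The genes and lists were chosen with earlier results of these data known. No pair of libraries was close to identical (chi-square per degree of freedom of 67.6 or more over 36 pairs). Precision from counts covers counting error only. P values measure the spread between eyes of different mice. All 9 libraries entered the reported slopes.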

Additional observations from a re-analysis of the deposited data

Results flagged for a closer look

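Among 124 measures screened for an eye far from the others by Dixon's criterion, 3 were found, where chance alone gives about 1 in 20, or 6.2. *Mgst3* was at 7.979 log2 CPM in eye 8, and the next eye was at 6.23. *Otx2*, a transcription factor of the RPE and photoreceptors, was at 7.31 log2 CPM in eye 8, and the next eye was at 8.049. The mean of the cone markers was 4.419 log2 CPM in eye 6, and the next eye was at 2.585. Eye 8 had the lowest length trend of the 9 libraries and eye 6 the highest retinal markers. The part of either in these values was not tested.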

How the results depend on the processing

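The count of genes past the threshold was 0 in both directions under every setting it was run in, except DESeq2, with 141 positive and 55 negative slopes, and no filter on low counts, with 1 negative slope. *Gclc* and *Txnrd1* kept a positive slope in every setting and passed the threshold only in DESeq2 (1.96 and 1.48).

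Counts at an unadjusted p under 0.05 moved more. Positive slopes numbered 1199 without a filter, 457 with the retina covariate, 1887 with the library total, 1925 with no scaling, 1335 with the length trend, 343 without eyes 2 and 6, and 1575 without eyes 3, 6 and 8, and 399 to 1603 when each eye was left out. Negative slopes numbered 278 with upper-quartile scaling, 1946 without a filter, 1164 in DESeq2, 288 in voom, 295 in limma-trend, 875 with the library total, 1124 with no scaling and 2253 without eyes 3, 6 and 8, and 249 to 1116 when each eye was left out. With no scaling the median slope of all genes was 0.21, and in DESeq2 it was -0.12, against -0.0113. The cause was not tested.

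Of 95 genes named, 73 kept the sign of their slope in every setting in which they passed the filter. *Gngt1*, *Pde6g* and *Myh2* did not pass it without eyes 3, 6 and 8, nor did *Gngt1* and *Myh2* under filterByExpr, or *Myh2* without eye 3. Without eyes 3, 6 and 8 the sign turned for *Gpx1* (0.87), *Sod3* (-0.066), *Psmb3* (0.69), *Psmb2* (0.49), *Psma7* (0.36), *Ddit3* (0.83), *Mdm2* (-0.022), *mt-Co2* (0.95), *mt-Co3* (1.07), *mt-Atp6* (0.95), *Ttr* (0.36), *Rdh11* (-0.19), *Fcer1g* (0.16), *Aif1* (1.28), *Plvap* (-0.32), *Fmod* (-0.26), *Hbb-bs* (0.89), *Hba-a2* (0.92) and *Mylpf* (0.24). It also turned for *Gpx1* with the RPE covariate (0.11) and without eye 8 (range when each eye was left out, -0.708 to 0.022), for *Asns* with the retina covariate (0.049), for *Vwf* with that covariate (0.48), without eye 6 (range when each eye was left out, -1.23 to 0.51) and without eyes 2 and 6 (0.50), and for *Flt1* in those settings (0.12, -1.02 to 0.11 when each eye was left out, and 0.067) and with no scaling (0.000883).

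The prior count of 0.5 was run only for the correlations of *Gclc* and *Txnrd1*, which it did not move across the threshold. The settings without eyes 2 and 6, without eyes 3, 6 and 8, with no scaling and with the length trend were chosen after seeing the data. No paired analysis was possible because 1 eye of each mouse enters. With 9 eyes and a 2.72-fold range of *Nfe2l2*, the edgeR test told no slope from 0 after adjustment, steep ones included.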
